A study of Mus musculus with 2 samples.

Results

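The transcripts described are those annotated as targets of nonsense-mediated decay (NMD) that were well expressed in hippocampal RNA. They were selected on measured values: a transcript qualified when it carried the NMD biotype and reached at least 1 TPM (a level corrected for transcript length and scaled to a fixed total per library) in both libraries and in both deposited quantifications, RSEM and kallisto. Of 7186 annotated NMD transcripts, 1137 (15.8%) qualified, among 141767 annotated transcripts of all kinds. They belonged to 1007 genes, of which 894 had 1 qualifying transcript, 97 had 2 and 16 had 3 or more. Because level chose them, levels and shares are given as a description and not tested.

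The RNA came from the hippocampus of female B6CASTF1/J mice, a hybrid of C57BL/6J and CAST/EiJ, at 14 days of age, with no treatment or genetic change named in the labels. The only group held 2 biological replicates, each listing 3 females under its own set of numbers, and 300 ng of total RNA, depleted of ribosomal RNA and with synthetic ERCC spike-ins, went into each library. The labels call the tissue a layer of the hippocampus without saying which, and give both replicates the same donor identifier; whether the females were pooled before or after extraction is not stated. RNA from all cell types was mixed, so fewer cells of a type and less RNA per cell cannot be told apart.

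NMD is a quality control pathway that degrades messages whose stop codon lies well upstream of an exon junction. During translation, the exon junction complex left downstream of such a stop recruits the factors that trigger decay, so these transcripts are usually scarce relative to how often they are made. Many genes of RNA-binding proteins carry conserved alternative exons, often called poison exons, whose inclusion brings in a premature stop and lets the protein limit its own level. In the annotation, the NMD biotype is a prediction from the position of the stop codon and not a measurement of decay.

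The sequences below show how the stop codon arises in 14 of these transcripts, chosen to cover the main kinds of stop and the gene groups described later. Each runs 5′ to 3′ over the last coding bases of the exon that holds the stop, and ends with the stop codon in capitals. At most 90 bases are shown for stops in a separate exon or in bases extending a coding exon. For the other stops at most 30 bases are shown, so the exon can hold more coding bases. The sequences come from the GENCODE M21 transcripts on mm10. To place the stops, only protein-coding transcripts with an annotated stop codon were used for comparison. In the first set the stop lay in an exon that overlapped no exon of the gene's protein-coding transcripts, here for splicing regulators and for Atp5f1, a subunit of the mitochondrial ATP synthase.
Srsf3-201: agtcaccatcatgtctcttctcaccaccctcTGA
Srsf4-204: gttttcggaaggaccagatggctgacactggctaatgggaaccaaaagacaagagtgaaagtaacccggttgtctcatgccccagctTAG
Tra2a-202: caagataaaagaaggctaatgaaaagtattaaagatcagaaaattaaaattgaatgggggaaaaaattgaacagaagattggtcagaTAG
Tra2b-206: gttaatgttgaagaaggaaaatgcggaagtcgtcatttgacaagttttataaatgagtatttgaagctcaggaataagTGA
Hnrnpll-203: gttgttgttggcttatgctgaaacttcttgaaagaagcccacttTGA
Rbm39-222: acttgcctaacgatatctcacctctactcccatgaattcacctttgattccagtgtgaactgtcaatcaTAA
Atp5f1-203: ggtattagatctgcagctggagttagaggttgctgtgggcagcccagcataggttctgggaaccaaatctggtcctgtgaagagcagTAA
These windows lay at chr17:29039454-29039487 (Srsf3, plus strand), chr4:131884301-131884390 (Srsf4, plus), chr6:49252965-49253054 (Tra2a, minus), chr16:22259181-22259261 (Tra2b, minus), chr17:80044976-80045022 (Hnrnpll, minus), chr2:156178881-156178952 (Rbm39, minus) and chr3:105957934-105958023 (Atp5f1, minus).

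In the second set the stop lay in bases that extend a coding exon (Ddx5 and Ndufs6), or inside sequence that other transcripts of the gene read in another frame (Ppia and Eif4a2).
Ddx5-208: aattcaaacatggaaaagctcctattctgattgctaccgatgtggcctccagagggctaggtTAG
Ndufs6-202: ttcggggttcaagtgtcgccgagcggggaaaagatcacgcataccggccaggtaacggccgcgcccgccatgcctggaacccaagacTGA
Ppia-201: aaaactttcgagctcTGA
Eif4a2-210: ttgcattggaggaacaaatgttcgaaaTGA
These windows lay at chr11:106783954-106784018 (Ddx5, minus), chr13:73328300-73328389 (Ndufs6, minus), chr11:6418226-6418243 (Ppia, plus) and chr16:23110038-23110067 (Eif4a2, plus).

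In the third set the stop was the one that protein-coding transcripts of the gene use, and an exon junction followed it.
Atp2a2-203: actaactttagcgatatgttctggtctTGA
Mobp-204: aggagcaggtcaaccccaaggaagaagTGA
Hnrnpa1-203: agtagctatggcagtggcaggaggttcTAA
These windows lay at chr5:122457151-122457180 (Atp2a2, minus), chr9:120173161-120173190 (Mobp, plus) and chr15:103243985-103244014 (Hnrnpa1, plus).

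Across all 1137 transcripts, the stop lay inside coding sequence of another transcript of the gene in 619 (54.4%). It lay in a separate exon in 206, in bases extending a coding exon in 168, in an untranslated exon of a coding transcript in 15 and partly in an exon of a coding transcript in 7. In 96 it was the stop of a protein-coding transcript, and 64 of these had a whole coding sequence identical to that transcript, so that only the untranslated part set them apart. The other 25 belonged to genes with no protein-coding transcript that has an annotated stop, and 1, Rapgef1-207, had no annotated stop itself. The separate exons had a median of 114.5 bases, and the length was a multiple of 3 in 73 of 206 (35.4%). Among all 7186 annotated NMD transcripts the stop lay inside coding sequence in 57.3% and in a separate exon in 20.1%.

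The annotated stop was more than 50 bases upstream of the last exon junction in 1130 of the 1136 transcripts with a stop, with a median distance of 414 bases. The distance is part of how the biotype is assigned, and protein-coding transcripts at the same level exceeded it in 68 of 16615 cases (0.409%). In 904 transcripts at least 2 junctions followed the stop. The 6 transcripts at 50 bases or less were Cdipt-203, Atp11b-211, Arhgap23-204, Huwe1-212, Thap12-204 and Wdr44-205, with distances of 20 to 50 bases; they are named because they were so few. The start codon was that of a protein-coding transcript in 836. Stop codons were TGA in 55.4%, TAA in 23.3% and TAG in 21.3%, against 50.2%, 26.7% and 23.1% in protein-coding transcripts at the same level. Over all 7184 annotated NMD transcripts with a stop they were 57.9%, 22.5% and 19.7%.

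**Figure D1:**
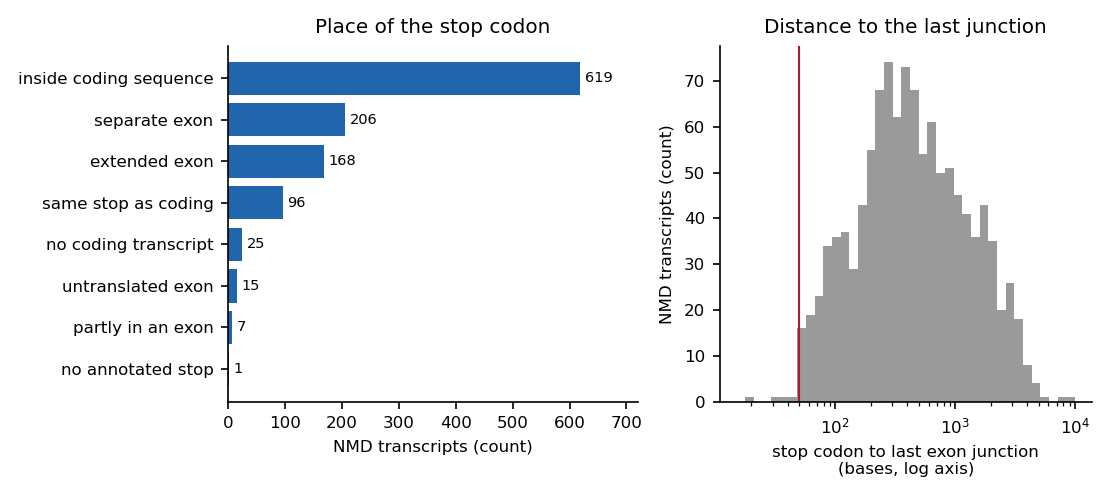
Left, number of NMD transcripts (bars) by place of the annotated stop codon; right, number of transcripts by distance in bases from the stop codon to the last exon junction (log axis), with a line at 50 bases. Stops inside coding sequence lead with 619, and only 6 transcripts lie at 50 bases or less.

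The depth behind the values was 33465393 and 32879873 expected counts in replicates 1 and 2, and the median expected count was 134 per NMD transcript against 212 over all transcripts at the same level. All 12 markers of hippocampal neurons reached 1 TPM in both libraries. So did 3 of 4 markers of other brain regions: Ppp1r1b (20.3 and 16.7 TPM), Prkcd (22.1 and 18.4 TPM) and Drd1 (1.27 and 1.25 TPM). The remaining one, Gbx2, had 0.06 and 0.02 TPM. The libraries differed in choroid plexus markers, whose summed level (Ttr, Folr1, Aqp1 and Kcnj13) was 1404 TPM in replicate 1 and 6.16 TPM in replicate 2, with Folr1, Aqp1 and Kcnj13 at 0.26, 0.17 and 0.11 TPM in replicate 2. Its part in the differences between libraries given later was not tested. None of these 4 choroid plexus genes had a qualifying NMD transcript.

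As a set, the 1137 transcripts were a small part of the RNA. They held 0.903% and 0.872% of all RSEM TPM in replicates 1 and 2, and 1.61% and 1.55% of kallisto tpm. The median RSEM level was 3.32 TPM in replicate 1 and 3.13 TPM in replicate 2, and 20 transcripts had a mean of 50 TPM or more. Their parent genes had a median level of 26.3 TPM, against 14.0 TPM for 2634 other detected genes with an annotated NMD transcript. A gene with a higher total reaches the threshold with a smaller share, so this difference is in part set by the rule.

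The share of the parent gene (IsoPct, the percent of the gene's RSEM TPM that a transcript holds) had a median of 14.6% in replicate 1 and 15.1% in replicate 2, and from kallisto tpm it was 14.99% and 15.5%. At the same level rule, the median of the mean IsoPct was 15.3% for NMD transcripts, 7.03% for 5326 retained-intron transcripts, 11.4% for 1986 processed transcripts and 43.3% for 18535 protein-coding transcripts. A total of 322 NMD transcripts were under 10% in both libraries, and 82 were at 50% or more in both. The highest transcript of its gene by RSEM TPM in both libraries was an NMD transcript that qualified in 182 cases (16.0% of 1137), against 41.7% of all 28340 transcripts at that level. By kallisto tpm 198 were highest, and 120 were highest by both, 97 of them in genes with a protein-coding transcript.

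**Figure D2:**
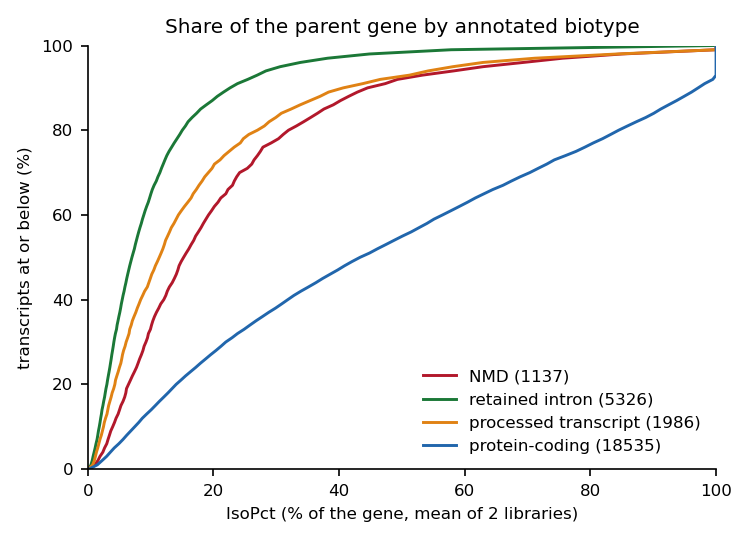
Percent of transcripts at or below each IsoPct (percent of the gene's RSEM TPM, mean of 2 libraries), by annotated biotype, for transcripts that meet the level rule. The NMD line lies between retained-intron and protein-coding transcripts, with medians of 15.3%, 7.03% and 43.3%.

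Ppia, which encodes the peptidyl-prolyl isomerase cyclophilin A, had the most abundant NMD transcript. Ppia-201 (chr11:6415870-6419815, plus strand) stood at 735 TPM in replicate 1 and 687 TPM in replicate 2 by RSEM, and at 853 and 890 tpm by kallisto. Its IsoPct was 85.7% and 83.1%, but its share of kallisto tpm was 47.0% and 53.2%. The quantifications divided the gene in different ways: the protein-coding Ppia-202 had 5.16 and 8.31 TPM by RSEM and 465 and 426 tpm by kallisto. Of the 31-base words of Ppia-201, 64.2% also occurred in transcripts of other genes, and 4.05% occurred in no other transcript. The part of this shared sequence in the difference was not tested. Of the 78 NMD transcripts with over 50% of words in other genes, 62 had shares within 10 percentage points between quantifications, as had 855 of all 1137. However, 54 of the 78 were in genes with a protein-coding transcript that has an annotated stop. Among the rest, 20 held all of their gene's RSEM TPM in both libraries. A transcript with no other in its gene has equal shares by construction, so the count of 62 is not a test of shared sequence.

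Rpsa-206, of a gene for a ribosomal protein of the small subunit, also differed between quantifications. It had 191 and 201 TPM by RSEM and 120 and 136 tpm by kallisto, and its IsoPct of 78.8% and 80.6% compared with 34.8% and 37.8% of kallisto tpm. Words also found in other genes made up 78.2% of Rpsa-206.

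Atp2a2-203 (chr5:122453513-122502174, minus strand) came from the gene of the calcium pump of the endoplasmic reticulum. It had 176 and 168 TPM by RSEM and 185 and 180 tpm by kallisto, so its levels lay close together in both libraries and both quantifications. It was the largest transcript of its gene in every table, but its share differed between quantifications, at 61.5% and 64.1% by IsoPct and 44.1% and 46.8% by kallisto. Its coding sequence had 3135 bases, the same as the protein-coding Atp2a2-201, which had 67 and 59.8 TPM by RSEM and 142 and 125 tpm by kallisto. As the third set of sequences shows, its stop was the ordinary stop of the gene, and the last junction lay 1258 bases further on. Whether such a transcript is degraded was not measured here.

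Eif4a2-210, of the gene for an RNA helicase of translation initiation, had 122 and 127 TPM by RSEM but 22.6 and 31.1 tpm by kallisto. The libraries were alike and the quantifications were not, and none of its words were private to it. Its IsoPct was 39.4% and 40.8%, against 4.27% and 6.18% of kallisto tpm, where the protein-coding Eif4a2-201 led at 222 and 217 tpm.

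The rest of the 20 most abundant included metabolic, membrane and signalling genes. Prdx6-208, of a peroxiredoxin gene expressed in astrocytes, had 72.1 and 75.9 TPM, with an IsoPct of 59.8% and 60.6% and a kallisto share of 53.7% and 51.3%. Tspan5-207, of a tetraspanin gene, had 52.3 and 65.8 TPM and held 70.0% and 77.8% of the gene, with a mean kallisto share of 62.8%. Glo1-201, of the gene for glyoxalase, which detoxifies methylglyoxal, had 49.8 and 54.6 TPM. It held 67.5% and 70.0%, and 50.3% and 55.3% by kallisto. The protein-coding Glo1-202 had 18.5 and 18.4 TPM by RSEM and 0 tpm by kallisto. The protein-coding Glo1-204 had 0 TPM by RSEM and 53.9 and 54.2 tpm by kallisto. Cbarp-212, of a regulator of voltage-gated calcium channels, had 75.5 and 78.8 TPM and held 43.4% and 47.2%, and 48.4% and 50.7% by kallisto. Ppp1cb-205, of a catalytic subunit of protein phosphatase 1, had 78.8 and 78.0 TPM and held 47.5% and 47.4%, and 39.5% and 39.0% by kallisto. In each of these 5, RSEM TPM in the libraries lay within 1.5-fold. Mdh2-203, of mitochondrial malate dehydrogenase, stood apart by quantification, with 55.1 and 64.0 TPM by RSEM and 13.1 and 19.7 tpm by kallisto.

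At 50% or more of the parent gene in both libraries and by both quantifications stood 56 transcripts, of which 34 were in genes that also have a protein-coding transcript. Besides Prdx6-208, Tspan5-207 and Glo1-201, the following were picked after their values were seen. Mnat1-203, of a subunit of the CDK-activating kinase, held 91.4% and 85.9% by IsoPct at 8.20 and 6.54 TPM. Syt16-201, of an atypical synaptotagmin gene, held 87.2% and 81.0% at 22.3 and 25.2 TPM, and its stop lay in a separate exon. Dirc2-202, of a lysosomal transporter gene, held 70.4% and 72.6% at 25.7 and 28.8 TPM. In these 3 genes the annotated NMD transcript exceeded every protein-coding transcript of the gene by both quantifications.

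**Figure D3:**
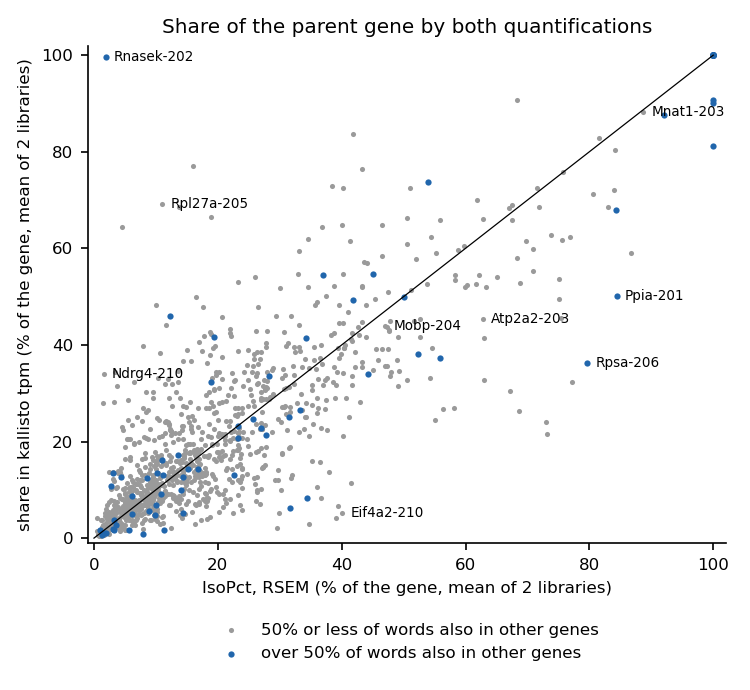
Share of the parent gene in RSEM TPM (IsoPct, x axis) against the share in kallisto tpm (y axis), each the mean of 2 libraries in percent, one point per NMD transcript; the line marks equal shares. Of 1137 points, 855 lie within 10 percentage points of the line; Rnasek-202 and Rpl27a-205 lie far above it, and Ppia-201, Rpsa-206 and Eif4a2-210 far below.

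All 20 transcripts with an IsoPct of 100% in both libraries were in genes with no protein-coding transcript that has an annotated stop. Their share therefore carries no information on a splicing choice against such a transcript. Each of the 25 in such genes overlapped exons of at least 1 named coding gene on the same strand, and 22 overlapped exons of 2. Gm20683-201 shared exons with Rhbdl1 and Rhot2 and had 13.5 and 12.3 TPM. Gm20716-201 shared exons with Adnp and Dpm1 and had 11.1 and 13.2 TPM. The median share of words in other genes was 93.3% over the 20.

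SR proteins, which bind exonic enhancers and recruit the splicing machinery, were listed together with SR-like splicing factors. Of the 21 detected genes in this list, 11 (52.4%) had a qualifying NMD transcript. Over all detected protein-coding genes the share was 7.80% (1006 of 12898). Over those with an annotated NMD transcript it was 27.6%, against 61.1% of such genes in the list. The stop lay in a separate exon in Srsf3, Srsf4, Srsf9, Srrm2, Tra2a and Tra2b. Srsf9-205 had 16.5 and 15.6 TPM, the highest mean of the 11, with an IsoPct of 46.2% and 48.5%. Srsf3-201 had 9.56 and 9.05 TPM, and its share was 13.8% and 15.1% by RSEM but 28.2% and 26.6% by kallisto. Tra2a-202 had 5.37 and 4.57 TPM, with shares of 14.5% and 20.9% by RSEM and 40.7% and 42.8% by kallisto. Tra2b-206 had 6.00 and 8.47 TPM and held 15.4% and 24.0%. Srsf1-204 had 15.8 and 9.63 TPM, and Srsf6-201 had 15.6 and 11.2 TPM, both lower in replicate 2 in every table. Srsf4-204 had 1.88 and 3.41 TPM. Srrm2-204 held 0.9% and 0.86% of its gene, the lowest share of the group. The median IsoPct of these 11 transcripts was 14.6%, close to the 15.3% over all 1137.

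Genes of hnRNP proteins, which often act against SR proteins in exon choice, had 12 qualifying transcripts in 9 of 30 detected genes (30%). Over all detected protein-coding genes the share was 7.80%. Among hnRNP genes with an annotated NMD transcript it was 52.9%, against 27.6% of all such protein-coding genes. Hnrnpu-206 led with 87.7 and 80.4 TPM and held 48.7% and 49.4% of the gene, and 41.9% and 41.3% by kallisto. Rbmx-205, of the X-linked RNA-binding motif protein, had 14.1 and 11.9 TPM and held 49.7% and 45.8%. Hnrnpa1-203 had 38.2 and 31.6 TPM and held 29.7% and 24.4%, and 74.5% of its words occurred in other genes. Its stop was the ordinary stop of the gene. Hnrnpll-203 had 3.71 and 4.11 TPM and held 14.4% and 16.6%, against 24.5% and 31.9% by kallisto. Hnrnpk-203 was low in both, at 1.48% and 2.48%.

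**Figure D4:**
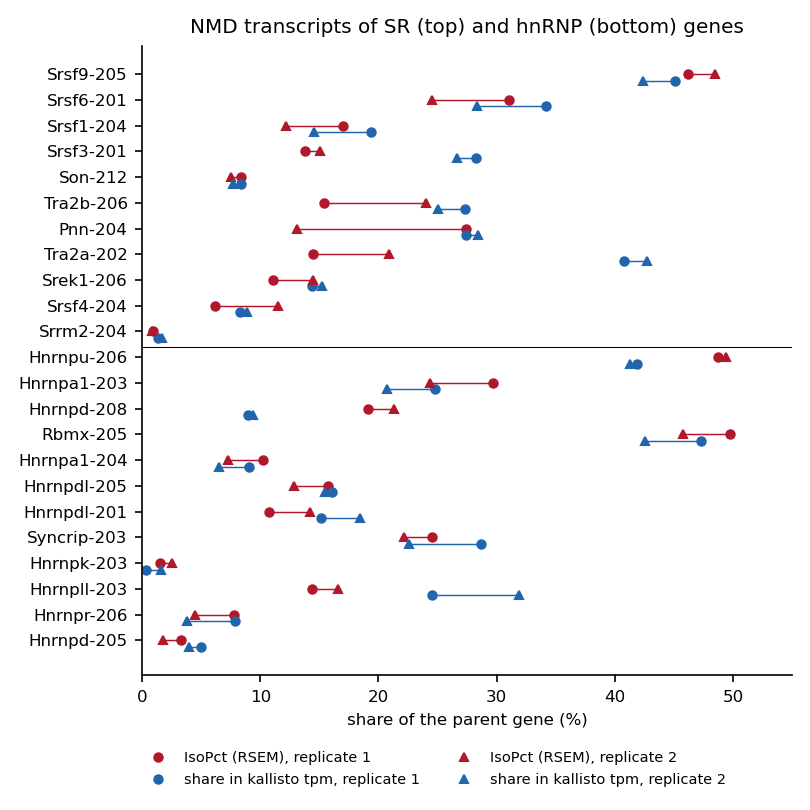
Share of the parent gene in percent (x axis) for qualifying NMD transcripts of SR and SR-like genes (above the line) and hnRNP genes (below). IsoPct is in red and kallisto share in blue, with a circle for replicate 1 and a triangle for replicate 2. Srsf9-205, Hnrnpu-206 and Rbmx-205 lie between 40% and 50% in all 4 values; Srsf3-201 and Tra2a-202 have kallisto shares well above their IsoPct.

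Of other splicing and RNA-binding regulators, 21 of 63 detected genes (33.3%, against 7.80% of all detected protein-coding genes) had 27 qualifying transcripts. Among those with an annotated NMD transcript the share was 58.3%, against 27.6% over all protein-coding genes. Ddx5-208, of a DEAD-box RNA helicase, had 70.3 and 51.2 TPM and held 23.7% and 18%, and its stop lay in bases extending a coding exon. Khdrbs3-204, of the neuronal STAR protein SLM2, had 42.3 and 34.1 TPM and held 30.9% and 30.3%. Celf2-228 had 35.9 and 36.7 TPM, and Srpk2-204, of a kinase that phosphorylates SR proteins, had 29.8 and 28.2 TPM with 49.2% and 46.4% of its gene. Tardbp, which encodes TDP-43, had Tardbp-228 at 22.3 and 15.9 TPM and Tardbp-208 at 9.06 and 4.38 TPM. Rbm39 had 3 qualifying transcripts, and Rbm39-222 and Rbm39-225 ended at the same stop codon; together the 3 held 12.3% and 13.2% of the gene. Clk1-210, of a kinase of SR proteins, had 18.1 TPM in replicate 1 and 7.4 TPM in replicate 2, and kallisto gave 20.1 and 7.73 tpm. The median IsoPct of the 27 was 6.48%, below the median over all 1137.

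Of 33 detected genes for NMD factors and the exon junction complex, 7 had an annotated NMD transcript and 2 had a qualifying one. These 2 were 6.06% of the detected genes and 28.6% of those with an annotated NMD transcript, near the 7.80% and 27.6% over all protein-coding genes. Gspt2-202, of a translation release factor, had 2.83 and 2.20 TPM and held 16.1% and 14.8%. Smg5-202, of a factor that acts after the helicase UPF1, had 1.17 and 1.37 TPM and held 4.10% and 5.13%.

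Cytosolic ribosomal protein genes had a qualifying transcript in 8 of 85 detected genes. This was 9.41%, near the 7.80% over all detected protein-coding genes. Among those with an annotated NMD transcript (20 genes) the share was 40%, against 27.6%. Rpl12-201 had 27.4 and 30.1 TPM and held 52.4% and 55.4% of its gene, and Rpl13a-216 had 27.7 and 26.6 TPM and held 7.75% and 7.99%. By kallisto their mean shares were 73.7% for Rpl12-201 and 0.868% for Rpl13a-216. Rpl3-205 had 3.50 and 1.70 TPM and held 1.75% and 0.720%. In 7 of the 8, Rpl27a-205 being the exception at 48.6%, over 57% of words occurred in other genes. Translation factors and aminoacyl-tRNA synthetases had a qualifying transcript in 9 of 57 detected genes (15.8%, against the same 7.80%). With an annotated NMD transcript required, the share was 47.4%, against 27.6% over all protein-coding genes. Eef1b2-205, of an exchange factor of elongation, had 43.4 and 39.1 TPM and held 24.7% and 21.8%. Qars-231, of glutaminyl-tRNA synthetase, had 11.9 and 15.3 TPM and held 29.9% and 40.5%, against 11.4% and 20.3% by kallisto.

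Nuclear genes of oxidative phosphorylation had 7 qualifying transcripts in 6 of 96 detected genes. This was 6.25%, near the 7.80% over all detected protein-coding genes. Among those with an annotated NMD transcript the share was 26.1%, against 27.6%. The 7 transcripts had a median of 23.9 TPM and a median IsoPct of 30.6%. Atp5f1-203 had 66.2 and 61.7 TPM and held 47.6% and 47.7%, close to the 49.0% and 49.5% of the protein-coding Atp5f1-201. Ndufs4, of an accessory subunit of complex I, had Ndufs4-204 at 34.7 and 34.2 TPM and Ndufs4-202 at 25.3 and 22.6 TPM, at 42.8% and 45.4% and at 31.2% and 30% of the gene. Together the NMD transcripts of Ndufs4 therefore held most of its RSEM TPM in both libraries. Ndufs6-202 had 20.4 and 14.0 TPM and held 26.1% and 18.1%, against 38.3% and 45.5% by kallisto. Cyc1-202, of cytochrome c1, had 13.2 and 9.49 TPM.

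Synaptic and neuronal genes had 7 qualifying transcripts in 6 of 73 detected genes. This was 8.22%, near the 7.80% over all detected protein-coding genes. Among those with an annotated NMD transcript the share was 33.3%, against 27.6%. Dnm1-206, of the GTPase dynamin that cuts synaptic vesicles from the membrane, had 40.7 and 37.4 TPM but held 8.23% and 8.17% of a highly expressed gene. Nrxn3, of a presynaptic adhesion protein, had Nrxn3-213 at 6.95 and 7.20 TPM and Nrxn3-208 at 6.22 and 5.78 TPM, which share the exon that holds the stop. Ank3-225, of the scaffold of the axon initial segment, had 10.1 and 10.2 TPM and held 4.79% and 4.83%. Gria2-203, of an AMPA receptor subunit, had 3.56 and 2.72 TPM and held 1.5% and 1.21%. None of the 7 held over 14% of its gene in either library by RSEM.

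Of 24 detected glial and myelin genes, 3 had an annotated NMD transcript, and Mobp alone had a qualifying one. This was 4.17% of the detected genes and 33.3% of those with an annotated NMD transcript. Over all protein-coding genes the shares were 7.80% and 27.6%. Mobp-204, of the myelin-associated oligodendrocytic basic protein, had 74.7 and 78.8 TPM by RSEM and 112 and 117 tpm by kallisto, and held 45.2% and 48.9%. It was the largest transcript of its gene, with a coding sequence of 246 bases, as in the protein-coding Mobp-202, which had 29.8 and 27.4 TPM. Of its words, 70.5% were found in no other transcript, against a median of 3.64% over all 1137. Of 21 detected genes of polyamine metabolism and stress responses, 3 had an annotated NMD transcript and 2 (9.52% of those detected) had a qualifying one. These were Azin1-205 (7.38 and 4.92 TPM), of the antizyme inhibitor, and Odc1-205 (1.98 and 2.62 TPM), of ornithine decarboxylase.

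Genes with 3 or more qualifying transcripts included Agtpbp1, Anapc5, Arih2, Crebzf, Deaf1, Desi1, Dscaml1, Mrpl3, Nrcam, Pip5k1c, Rbm39, Scai, Senp2, Snapc3 and Ttc3. Ttc3, of a ubiquitin ligase, had 4 of its 9 annotated NMD transcripts above the level, which together held 10.8% and 13.3% of the gene. Senp2, of a SUMO protease, had 3 holding 52.9% and 47.3% together, and Mrpl3, of a mitochondrial ribosomal protein, had 3 holding 48.4% and 50.2%. Pip5k1c, of the lipid kinase that makes PIP2 at synapses, had 3 holding 49.0% and 47.6%, most of it in Pip5k1c-208 at 60.1 and 55.9 TPM.

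Between libraries, 52 NMD transcripts (4.57%) were over 2-fold lower in replicate 2 and 35 (3.08%) over 2-fold higher, against 2.52% and 1.34% of all transcripts at the same level. With 1 library on each side these ratios have no replicate check. The share of members beyond 2-fold was above the background in both directions, and their median expected count was lower than that of all transcripts, as given above. The 87 transcripts beyond 2-fold had a median expected count of 62.8. By kallisto 92 were beyond 2-fold, and 23 were so by both in the same direction. The deposited credibility intervals of the libraries did not overlap for 41 NMD transcripts (3.61%), against 10.3% of all transcripts at that level. IsoPct differed between libraries by a median of 2.46 percentage points, and by 5 points or less in 849 transcripts.

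Kcna6-201, of a voltage-gated potassium channel gene, led the transcripts that were lower in replicate 2. It had 15.01 TPM in replicate 1 and 3.94 TPM in replicate 2 by RSEM, but 17.0 and 16.7 tpm by kallisto. The protein-coding Kcna6-204, with the same coding length of 1590 bases, differed the other way, with 2.59 and 11.1 TPM by RSEM and 8.88 and 6.19 tpm by kallisto. Private words made up 0.0345% of Kcna6-201, so nearly all of its sequence also occurs in other transcripts. Zgpat-203 had 8.80 and 2.43 TPM by RSEM and 10.8 and 5.29 tpm by kallisto. Pcnx-206 had 7.36 and 2.29 TPM, Cul3-203 had 4.93 and 1.47 TPM and Abcc5-213 had 3.50 and 1.12 TPM, and kallisto gave Cul3-203 21.3 and 19.1 tpm. At the other end, Adarb1-206, of an RNA-editing enzyme, had 2.12 and 9.48 TPM by RSEM and 12.6 and 13.2 tpm by kallisto, and had no private words. Ube3b-204 had 3.11 and 8.94 TPM by RSEM and 1.51 and 5.39 tpm by kallisto, higher in replicate 2 by both. Peg3-203 had 2.16 and 6.70 TPM, Psma3-206 had 1.37 and 4.05 TPM, and Pakap-201 had 1.23 and 3.59 TPM by RSEM. Kallisto gave them 5.63 and 7.89, 9.07 and 11.1, and 4.40 and 5.13 tpm, higher in replicate 2 but by less than 2-fold.

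**Figure D5:**
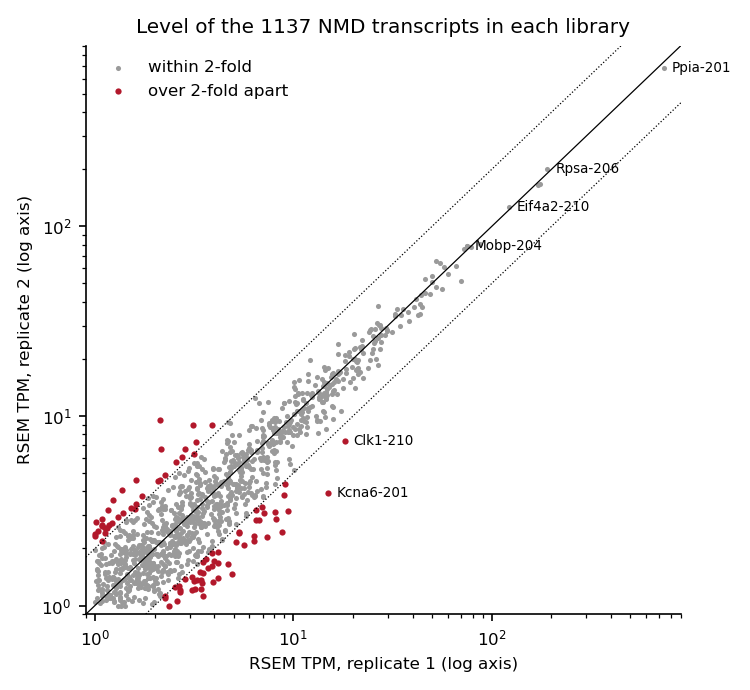
RSEM TPM of each of the 1137 NMD transcripts in replicate 1 (x) and replicate 2 (y), both on log axes; the solid line marks equality, dotted lines 2-fold, and red points the 87 transcripts beyond it. Of the red points, Clk1-210 (18.1 and 7.4 TPM) and Kcna6-201 (15.01 and 3.94 TPM) lie furthest to the right.

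Between quantifications, RSEM TPM was over 2-fold lower than kallisto tpm in both libraries for 307 NMD transcripts (27.0%) and over 2-fold higher for 20 (1.76%). Over all transcripts at that level the shares were 16.9% and 1.67%. The scales themselves differed: the median log2 ratio of RSEM to kallisto was -0.59 over all 28340 transcripts and -0.71 over the NMD transcripts, and nuclear protein-coding genes held 45% and 42.9% of RSEM TPM but 74.0% and 70.8% of kallisto tpm. After both were rescaled to the same total over those genes, 109 NMD transcripts (9.59%) were over 2-fold lower in RSEM and 74 (6.51%) over 2-fold higher, against 6.39% and 4.86% of all. The NMD transcripts lower in RSEM as deposited had a median length of 1096 bases, against 1995 for those within 2-fold. For transcripts over 1000 bases, the effective length was 99 bases below the length in RSEM, and 343.1 and 346.1 bases below it in kallisto. The part of length in the difference was not tested.

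Among the 5 transcripts with the lowest ratio of RSEM to kallisto was Ndrg4-210, of a gene of neurite growth, with 6.68 and 11.8 TPM by RSEM and 372 and 315 tpm by kallisto. RSEM assigned most of that gene to the protein-coding Ndrg4-203 and Ndrg4-202, while kallisto gave Ndrg4-202 1.2 and 1.6 tpm. Rnasek-202, of an endoribonuclease gene, had 2.59 and 2.54 TPM by RSEM, or 1.84% and 1.90% of its gene, and 164 and 155 tpm by kallisto, or 99.4% and 100%. The protein-coding Rnasek-201 had the reverse, with 123 and 113 TPM by RSEM and 1.02 and 0.00210 tpm by kallisto. Rpl27a-205 had 8.04 and 4.37 TPM by RSEM against 314 and 306 tpm by kallisto, Usp22-205 had 1.43 and 2.83 TPM against 83.7 and 73.6 tpm, and Fh1-204 had 1.1 and 1.3 TPM against 40 and 28.7 tpm. In the other direction, Vps29-207 had 26.8 and 38.0 TPM by RSEM against 2.29 and 6.35 tpm. Usp7-206, of a deubiquitinase gene, had 18.5 and 17.8 TPM against 2.09 and 1.41 tpm, and Rrp7a-203 had 20.9 and 19.3 TPM against 2.53 and 1.89 tpm. Rpl13a-216 and Cop1-213 completed these 5. For all of them, the libraries lay closer together than the quantifications.

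A median of 3.64% of the 31-base words of an NMD transcript occurred in no other transcript, against 9.02% for protein-coding and 36.8% for retained-intron transcripts at the same level. No private word was found in 136 (12.0%), the same share as among protein-coding transcripts at that level (12.0%). An intron of their own was annotated in 912, and 225 had none. Of the 136 without private words, 16 were over 2-fold apart between libraries (11.8%), against 71 of 1001 others (7.09%). Quantifications over 2-fold apart were found in 36 of the 136 (26.5%) and in 291 of the others (29.1%). Over 50% of words occurred in other genes for 78 transcripts. Transcript support, a GENCODE rating of how well an annotated model is backed by sequenced RNA, was at the best level for 433 and at the weakest for 327.

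At the threshold, the lowest of the 4 values was 1.00 TPM for Ap3s1-203 (replicate 2), Cnot3-204 (replicate 2) and Ctu2-208 (replicate 1), which are just inside. Just outside were Slx1b-202, whose kallisto value in replicate 2 was 0.991 tpm, B4galt2-202, with 0.990 TPM by RSEM in replicate 2, and Nprl3-212, with 0.993 tpm by kallisto in replicate 1.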

How the data were processed

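Total RNA from 1 group of 2 libraries was analysed. Per the file headers, the authors deposited for each library RSEM gene and transcript tables with expected counts, TPM, the percent of a gene held by each transcript (IsoPct) and credibility intervals, and a kallisto transcript table with estimated counts and TPM. Not given in the sources used here: the interval level, aligner, versions and strand setting; overlapping genes are therefore uncertain. Per the labels, the assembly was mm10 with GENCODE M21.

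The members and gene lists were chosen with earlier results of these data known. NMD transcripts were taken by biotype and by TPM of at least 1 in all 4 transcript tables. Stop codons, exon junctions and 31-base words came from the GENCODE M21 annotation and transcripts. Named transcripts were the 20 with the highest TPM, the 10 with the highest IsoPct, the 5 at each end of the ratio between libraries and between quantifications, 3 on each side of the threshold, the members in the gene lists, and genes with 3 or more members. Others are said to be chosen later, and some transcripts under this rule are not reported here. A gene was detected at 1 TPM in both libraries. With 1 group there is no test and no p-value. Values are given for each of the 2 libraries.

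The rules were tested on simulated data. Alternatives were other thresholds, 1 quantification or library, count minimums, rescaled TPM, log2(TPM + 1) and TMM scaling of rounded expected counts (edgeR 4.0.16). Python 3.11.15, numpy 2.4.6, pandas 2.3.3 and matplotlib 3.10.9 were used.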

Additional observations from a re-analysis of the deposited data

How the results depend on the processing

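The number of qualifying transcripts was 1137; it fell to 671 and 300 at thresholds of 2 and 5 TPM and rose to 2297 with kallisto alone. It stayed within 1.5-fold at 0.5 TPM, with RSEM alone, with a count minimum, after rescaling, and in either library alone (1434 to 1456). The median share of 15.3% was 10.9% in RSEM expected counts, 11.8%, 20.1% and 26.4% at thresholds of 0.5, 2 and 5 TPM, and 14.6% to 15.1% in single libraries. The median level of 3.295 TPM was 5.90 by kallisto and 3.13 to 3.32 in single libraries. The number highest in its gene was 214 to 220 in single libraries, against 182. Transcripts with libraries over 2-fold apart numbered 25 on log2(TPM + 1), against 87. Transcripts with quantifications over 2-fold apart numbered 186 on counts and 183 after rescaling, against 327, and 422 to 436 in single libraries. A higher threshold keeps fewer transcripts by construction, and 1 added to TPM shrinks ratios of low values. Requiring fewer tables or libraries can only keep or raise these counts. Rescaling raised every TPM, so it can only keep or raise the number of qualifying transcripts. The cause of the other shifts was not tested. Of 178 named transcripts, the IsoPct of 48 differed from the kallisto share by no more than 1 SD between libraries. The stop lay over 55 bases from the last junction in 1118. No paired analysis was possible because the series has 1 group. With 2 libraries, the spread rests on 1 difference per transcript.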
